A study of Homo sapiens with 2 samples.

Results

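The genes described here lie on chromosome 1 between 53.9 and 149.9 Mb (GRCh38), a stretch that runs from the short arm across the centromere into the start of the long arm. A gene was a member if the lowest start of its exons fell within these limits and it had at least 20 counts summed over both libraries. The files list 1334 annotated genes within the limits. Of these, 788 had no count in either library, 230 had fewer than 20 summed counts, and 316 were members, out of 13931 genes with at least 20 counts in the whole tables. The limits were chosen by the same log2 ratios of the 2 libraries that are given below, so the ratios of the members describe the stretch and test nothing.

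The RNA came from BEAS-2B, a line of human airway epithelial cells immortalised in culture, in its parental form and in a form that overexpresses TRPV3, a calcium-permeable channel (TRPV3-OE), with 1 library per group. Both forms are labelled as lung epithelium and were harvested at confluence. The parental library is labelled WT at passages 20 to 30 and the TRPV3-OE library at passages 4 to 8, so passage and genotype cannot be told apart. The labels do not say how the line was made or whether it is 1 clone. With no replicate there is no p-value, and the exact 95% intervals given cover counting error alone. They treat each read as an independent molecule, which PCR copies are not, so they may be too narrow.

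Gene counts totalled 17450658 in the parental and 17477953 in the TRPV3-OE library. TRPV3 had 26 parental and 54077 TRPV3-OE counts, which is the direction the labels give. All 9 epithelial markers examined had at least 20 counts, and their summed level was 4603 and 4696 CPM, the count scaled to a common library size. Their log2 ratios of TRPV3-OE over parental ran from −1.03 to 2.19, so the near-equal sums hide markers that differed in opposite directions. Fibroblast markers summed to 25.5 and 16.5 CPM with 2 of 8 at 0 in both libraries, endothelial markers to 16.7 and 3.31 CPM with 2 of 6 at 0, and immune markers to 4.50 and 25.9 CPM with 3 of 6 at 0, PTPRC among them. Only 2 fibroblast, 2 endothelial and 1 immune marker had at least 20 counts, so these sums rest on few genes. The 2 endothelial ones had log2 ratios of −2.99 and 0.66. The part of these differences in the results below was not tested.

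Chromosome 1 is the largest human chromosome. Its centromere is followed on the long arm by a large block of repetitive heterochromatin that holds almost no genes, and on both sides of it lie recently duplicated gene families such as NBPF, SRGAP2 and FAM72. The copies are so alike that a short read often aligns to several of them, and such reads are left out by the counter's default settings. Neighbouring genes on a chromosome arm share no common function as a rule, so the members are ordered here by position and then by role. DNA copy number and chromatin state were not measured in these files.

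The sequences shown are the start windows of genes at the lower edge of a segment fitted below and of a duplicated gene pair across the centromere. That segment began 2.66 Mb before the lower limit of the stretch, so the 3 genes at its edge are not members. Each window runs from 250 bases before to 50 bases after a gene's start and comes from RefSeq on GRCh38.p14, printed 5′ to 3′ on the gene's own strand. FAF1 (chr1:50960218-50960517, minus strand), which encodes a FAS-associated ubiquitin-binding factor, and CDKN2C (chr1:50960495-50960794, plus strand), which encodes the CDK inhibitor p18, start head to head. The capitals mark the 23 bases that their windows share, read from opposite strands. RNF11 (chr1:51236023-51236322, plus strand), a RING-finger protein gene, is the next gene with at least 20 counts.
FAF1: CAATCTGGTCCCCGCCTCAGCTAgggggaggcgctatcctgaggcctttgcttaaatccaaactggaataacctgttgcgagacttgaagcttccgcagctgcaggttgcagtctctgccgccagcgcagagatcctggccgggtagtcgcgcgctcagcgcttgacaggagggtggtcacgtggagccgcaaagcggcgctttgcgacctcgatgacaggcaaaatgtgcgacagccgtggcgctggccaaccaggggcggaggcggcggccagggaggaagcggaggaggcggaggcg
CDKN2C: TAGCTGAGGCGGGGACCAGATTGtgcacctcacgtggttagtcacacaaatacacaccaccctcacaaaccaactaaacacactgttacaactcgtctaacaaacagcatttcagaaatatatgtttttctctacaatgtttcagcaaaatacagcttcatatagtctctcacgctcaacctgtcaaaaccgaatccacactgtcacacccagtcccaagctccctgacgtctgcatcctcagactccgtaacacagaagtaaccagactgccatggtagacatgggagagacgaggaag
RNF11: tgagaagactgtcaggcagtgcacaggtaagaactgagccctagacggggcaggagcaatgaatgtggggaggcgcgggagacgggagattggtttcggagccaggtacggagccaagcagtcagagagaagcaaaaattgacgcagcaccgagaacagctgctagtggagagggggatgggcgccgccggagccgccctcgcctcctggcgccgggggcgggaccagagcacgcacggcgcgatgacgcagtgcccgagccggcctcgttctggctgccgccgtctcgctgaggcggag

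SRGAP2C on the short arm (chr1:121184725-121185024, plus strand) and SRGAP2B on the long arm (chr1:145095331-145095630, minus strand) are duplicates of SRGAP2, a gene of neuronal development. Their windows were shown because the 2 copies sit on opposite sides of the gap at the centromere. Over 283 aligned bases, 281 are identical and 2 are substituted, and 9 bases of SRGAP2C inside the alignment have no partner in SRGAP2B. The capitals mark the substituted and unpaired bases inside the alignment. The first bases of the SRGAP2B window and the last of the SRGAP2C window lie outside it and are not marked.
SRGAP2C: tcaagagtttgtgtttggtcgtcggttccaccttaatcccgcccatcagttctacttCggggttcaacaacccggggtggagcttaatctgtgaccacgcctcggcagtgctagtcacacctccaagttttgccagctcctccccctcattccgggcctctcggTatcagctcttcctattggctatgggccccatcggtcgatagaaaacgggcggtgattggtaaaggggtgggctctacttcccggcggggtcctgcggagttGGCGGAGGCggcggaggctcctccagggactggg
SRGAP2B: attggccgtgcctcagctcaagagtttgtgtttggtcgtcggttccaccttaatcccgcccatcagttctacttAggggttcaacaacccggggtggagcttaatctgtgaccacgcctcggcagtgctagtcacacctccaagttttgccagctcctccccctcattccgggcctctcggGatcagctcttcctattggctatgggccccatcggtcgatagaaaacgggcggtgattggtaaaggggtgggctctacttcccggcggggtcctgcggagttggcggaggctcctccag

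Transcripts of the stretch were more abundant in the TRPV3-OE library, and the difference was spread over most members. The median log2 ratio of TRPV3-OE over parental was 0.62 over the 316 members, a 1.54-fold higher level, against −0.01 over all 13931 genes. The quartiles of the members were 0.23 and 0.95. A ratio above 1 was found in 266 members (84.2%), against 48.8% of all genes. The interval lay wholly above 1 in 220 members (69.6%, against 31.9% of all genes) and wholly below 1 in 23 (7.28%, against 34.7%), and it held 1 in 73. For a call of higher or lower, a gene needed a difference of at least 2-fold and an interval on the same side of 1. By that limit 63 members were higher (19.9%, against 7.85% of all genes) and 7 were lower (2.22%, against 6.76%), and 246 lay between. These shares belong to the contrast from which the limits were drawn, and nothing is read from them.

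Summed over the members, counts went from 313903 (1.80% of the parental library) to 514920 (2.95% of the TRPV3-OE library), a 1.58-fold higher share after scaling. Without the 5 members of most counts the summed level was 1.47-fold higher. The difference was present at every depth. The median log2 ratio was 0.42 in the 69 members with 20 to 99 counts, 0.80 in the 48 with 100 to 499, 0.62 in the 91 with 500 to 1999 and 0.63 in the 108 with 2000 or more. The corresponding medians over all genes were 0.18, 0.00, −0.04 and −0.04. Protein-coding members (269) had a median of 0.60 and the other 47, among them 11 antisense transcripts, one of 0.83. Short-arm members on the plus strand (141) and on the minus strand (134) had medians of 0.70 and 0.80. The 97 members that overlap another annotated gene on the same strand, whose shared reads were not counted, had a median of 0.65 and the remaining 219 one of 0.61.

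**Figure D1:**
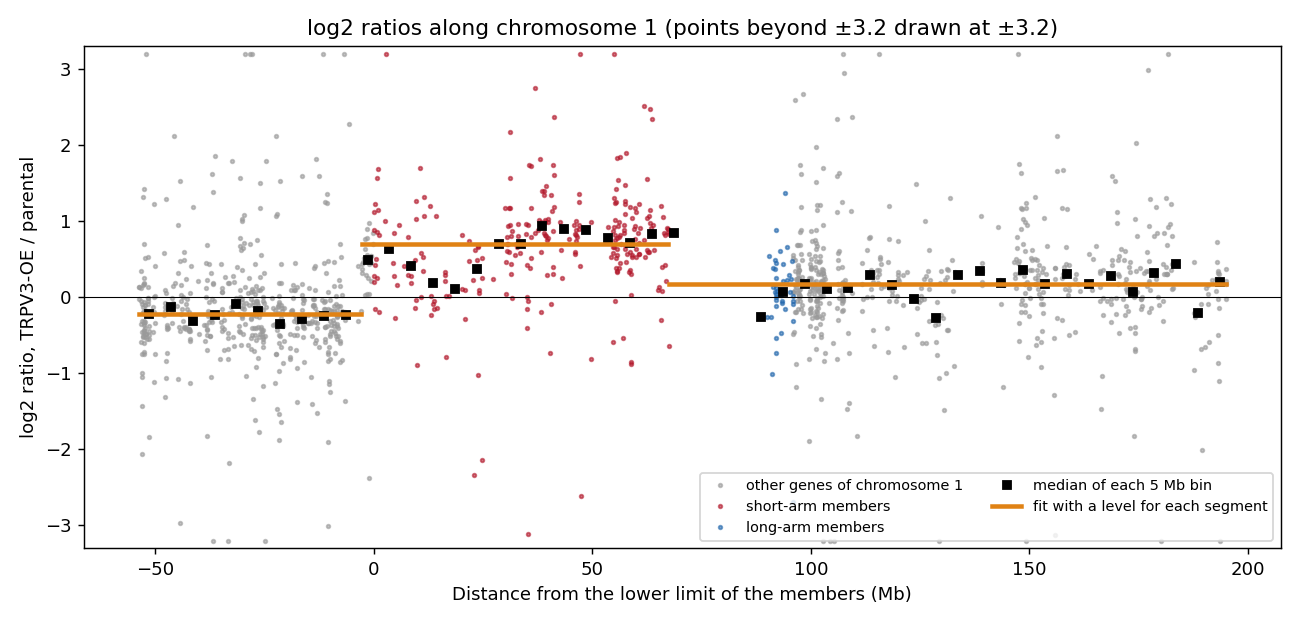
log2 ratio of each gene with at least 20 counts on chromosome 1 (points) against its distance from the lower limit of the members, with the median of each 5 Mb bin (squares) and a fit of 3 segments with a level each (lines). Of the 275 short-arm members 240 lie above 0, with a median of 0.73 over all of them, the 41 long-arm members have a median of 0.06, and the 3 fitted levels are −0.22, 0.69 and 0.18.

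The shift did not fill the stretch evenly. The widest gap between neighbouring members, 22.4 Mb from EMBP1 to FAM72C, is that of the centromere and its heterochromatin, and it parts 275 short-arm from 41 long-arm members. The short-arm members had a median log2 ratio of 0.73 (1.66-fold), with 240 above 1 (87.3%) and 62 called higher (22.5%). Over all genes 48.8% were above 1, 7.85% were called higher and 6.76% lower. The long-arm members had a median of 0.06, with 26 above 1 (63.4%), 1 called higher (2.44%) and 2 called lower (4.88%). Beyond the upper limit the 555 remaining genes of the long arm had a median of 0.18, with 67.2% above 1. The long-arm members thus lay nearer to their own arm than to the short-arm members. Before the lower limit the 532 genes of the short arm had a median of −0.20, with 30.6% above 1.

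**Figure D2:**
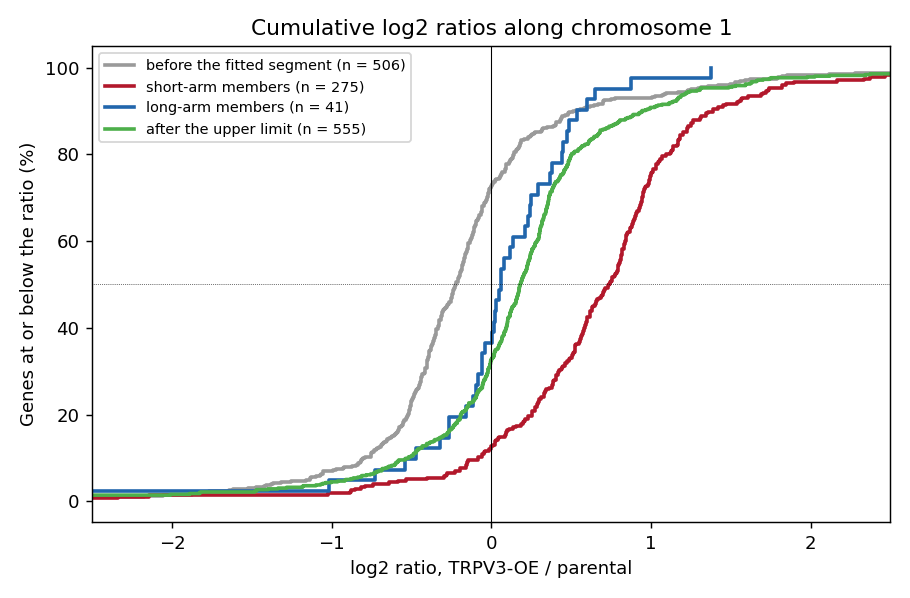
Cumulative share of genes (vertical axis, %) at or below each log2 ratio (horizontal axis) for 4 sets of chromosome 1 genes: those before the fitted segment (506), the short-arm members (275), the long-arm members (41) and those after the upper limit (555). The curve of the short-arm members is displaced to higher ratios, and that of the long-arm members lies beside the curve of the genes after the upper limit.

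Where the shift begins and ends was first sought with a step of 1 level inside and 1 common level outside, fitted by least absolute deviations. That fit ran from SPATA6 at 48.3 Mb to MTR at 236.8 Mb, so that it took in nearly all of the long arm. The 2 flanks did not share a level: the short arm before the stretch was lower and the long arm after it slightly higher. With a level of its own for each of 3 segments, chosen after the first fit was seen, the segment began at RNF11 (51236271) and ended at SRGAP2C (121184810), 69.9 Mb further on. The median log2 ratio of its 299 genes was 0.69, while the 506 genes before it had −0.22 and the 598 after it 0.18. The segment held 273 of the 316 members. It began 2.66 Mb before the lower limit of 53.9 Mb and stopped 28.7 Mb short of the upper limit of 149.9 Mb.

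The lower edge is narrow but not sharp to the gene. Upstream, CYP4X1, a cytochrome P450 gene, had 7 parental and 93 TRPV3-OE counts (log2 ratio 3.68, 2.58 to 5.03) and was called higher. The next 3 genes lay below 1 beyond counting error. STIL, a centriole assembly gene, had 1275 parental and 1157 TRPV3-OE counts (log2 ratio −0.20, −0.31 to −0.08), and CMPK1, a pyrimidine nucleotide kinase gene, had 3231 and 2726 (−0.30, −0.38 to −0.23). FOXD2-AS1, a non-coding RNA gene, had 62 and 25 (−1.37, −2.10 to −0.68) and was called lower. The 4 genes that follow, up to RNF11, alternated between above and below 1. SPATA6, a sperm flagellum gene, had 20 and 101 counts (2.28, 1.58 to 3.05) and DMRTA2, a transcription factor gene, 236 and 197 (−0.32, −0.60 to −0.04). FAF1 had 1533 and 2112 (0.41, 0.31 to 0.50), and its head-to-head neighbour CDKN2C had 298 and 272 (−0.19, −0.43 to 0.05). The 2 genes whose start windows overlap thus lay on either side of 1.

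From RNF11 onward the next genes were above 1. RNF11 had 1810 and 2430 counts (0.37, 0.28 to 0.46) and EPS15, an endocytic adaptor gene, 1029 and 1328 (0.31, 0.19 to 0.43). TTC39A, with 10 and 14 counts, had an interval that held 1. Of the 20 genes before RNF11, 7 had a ratio above 1, with a median of −0.19. Of the 20 from RNF11 on, 19 did, with a median of 0.45.

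At the lower limit of the rule itself genes on both sides were mostly above 1, with medians of 0.53 over the 20 before it and 0.83 over the 20 after it. The medians before and after were 0.49 and 0.46 with 10 genes on each side, and 0.42 and 0.47 with 40. Just outside the limit, LRP8, a lipoprotein receptor gene, had 1004 and 1512 counts (log2 ratio 0.53). NDC1, a membrane nucleoporin gene, had 3691 and 6222 (0.70) and YIPF1 had 474 and 880 (0.84). Just inside it, IFT25, an intraflagellar transport gene, had 915 and 1149 (0.27). LRRC42 had 1078 and 1287 (0.20) and TMEM59 had 1978 and 4477 (1.12). The 26 genes between RNF11 and the limit had a median of 0.48, and 25 of them were above 1.

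**Figure D3:**
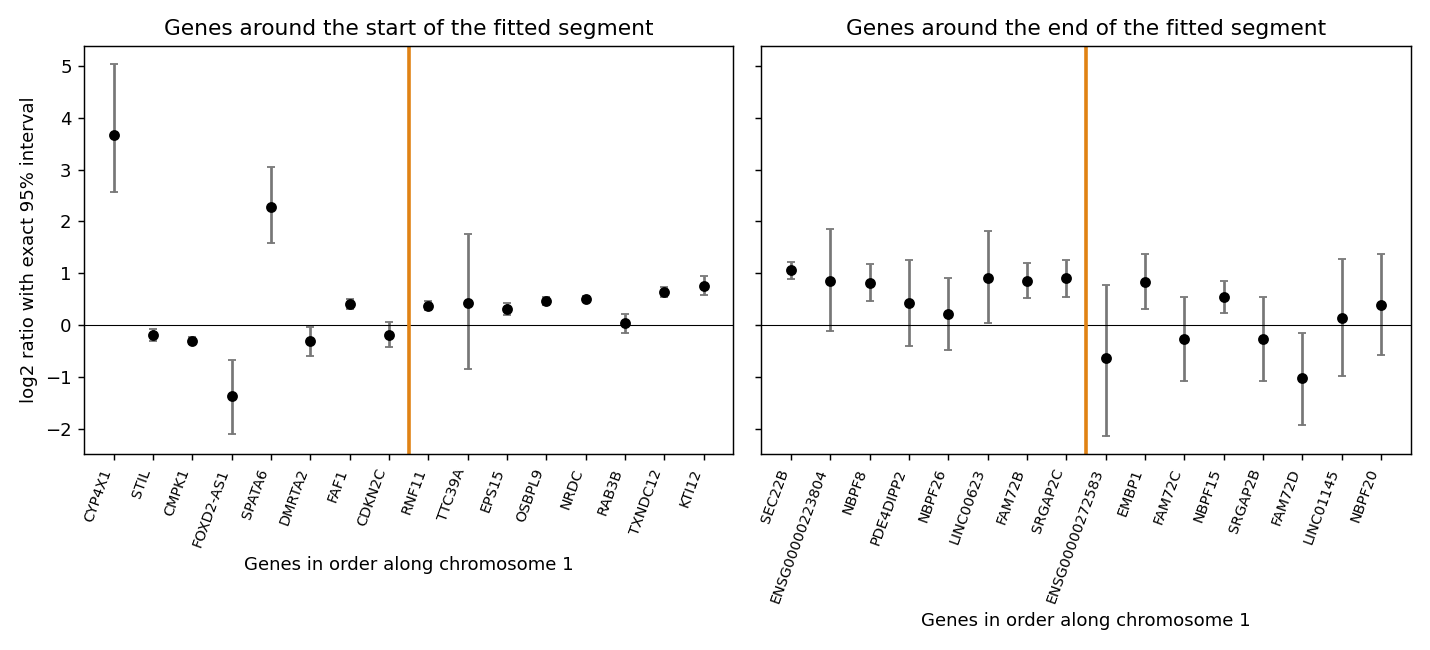
log2 ratio (points) with its exact 95% interval (bars) for the 8 genes on either side of the fitted start (left) and of the fitted end (right), in order along chromosome 1; the vertical line is the fitted edge. On the left the genes from RNF11 on lie above 0 and those before it on both sides of it, and on the right the genes up to SRGAP2C lie above 0 and those after it on both sides of it.

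The upper edge fell at the centromere, where counts are low and genes duplicated. SEC22B, a vesicle trafficking SNARE gene, had 439 and 947 counts (log2 ratio 1.05, 0.89 to 1.22) and NBPF8 had 106 and 194 (0.82, 0.47 to 1.17). FAM72B had 112 and 210 (0.85, 0.51 to 1.19), and SRGAP2C, the last gene of the segment, 102 and 198 (0.90, 0.55 to 1.26). The last short-arm member, the pseudogene EMBP1, still had 47 and 87 counts (0.83, 0.30 to 1.38). Across the gap FAM72C had 30 and 26 (−0.26, −1.08 to 0.54) and SRGAP2B also 30 and 26. FAM72D had 35 and 18 (−1.02, −1.92 to −0.16), whereas NBPF15 had 147 and 222 (0.54, 0.23 to 0.85). The short-arm copies of FAM72 and SRGAP2 named here thus had higher ratios than the long-arm copies named here. The NBPF family did not part by arm in this way. Its short-arm member NBPF26 had 34 and 41 counts (0.21, −0.48 to 0.91), a lower ratio than NBPF15, whereas NBPF8 had a higher one. The intervals do not overlap for FAM72B against FAM72D, but they do for FAM72B against FAM72C. That of SRGAP2C, from 0.549 up, barely clears that of SRGAP2B, which reaches 0.544. Reads shared by such copies are not in the counts, so these values are uncertain, and the difference has no replicate check.

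At the upper limit the genes on both sides lay around 0. BOLA1, the last member, had 133 and 140 counts (log2 ratio 0.02) and the histone gene H2AC20 12 in each library (−0.06). The histone gene H2BC21 had 56 and 9 (−2.69, −3.90 to −1.67). Outside the limit SV2A, a synaptic vesicle protein gene, had 295 and 439 (0.52). The splicing factor gene SF3B4 had 2871 and 3119 (0.06) and MTMR11 had 194 and 144 (−0.49). The 20 genes before the limit had a median of 0.03 and the 20 after it one of 0.11.

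Within the short arm the level differed along the chromosome. With 3 breakpoints the genes from SPATA6 to PRKACB (108) had a median log2 ratio of 0.42 and those from SAMD13 (84298366) to SRGAP2C (195) one of 0.82. With 4 breakpoints a lower stretch of 35 genes appeared from MIER1 at 66.9 Mb to PRKACB at 84.1 Mb, with a median of 0.11, between 0.51 before it and 0.82 after it. In bins of 5 Mb the median was 0.48 from 50 to 55 Mb, 0.10 from 70 to 75 Mb on 10 genes, and 0.94 from 90 to 95 Mb on 31 genes, 28 of them above 1. The summed absolute deviation fell to 84.8% of its value without breakpoints at 2 breakpoints, to 83.4% at 3 and to 83.1% at 4, so the steps beyond the second add little to the fit. Over the genome, 253 bins of 10 Mb held at least 20 genes, and the 4 with the highest medians were those of chromosome 1 from 90 to 100, 100 to 110, 110 to 120 and 80 to 90 Mb (0.94, 0.81, 0.76 and 0.70). Ranks 5, 6 and 7 went to bins of chromosome 20, from 20 to 30, 10 to 20 and 0 to 10 Mb (0.62, 0.61 and 0.51). On chromosome 1 the bin from 50 to 60 Mb ranked 8, that from 60 to 70 Mb 20 and that from 70 to 80 Mb 55. Its bin from 140 to 150 Mb ranked 105.

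Typical members with at least 1000 counts show the size of the shift. ATP5PB, a subunit of ATP synthase, went from 3024 to 4885 counts (log2 ratio 0.64, 0.57 to 0.70). PIGK, a subunit of the GPI transamidase, went from 1101 to 1753 (0.61), the AMP deaminase gene AMPD2 from 1000 to 1611 (0.63) and the ribosome biogenesis gene WDR3 from 2053 to 3278 (0.62). The DNA repair nuclease gene DCLRE1B went from 650 to 1047 (0.63). They have unrelated roles. All 5 were picked for lying nearest to the members' median, so their ratios, and intervals above 1, follow from that choice.

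Above that level stood a few members with much higher ratios. PRKAA2, which encodes a catalytic subunit of the energy-sensing kinase AMPK, had 100 and 1868 counts, or 5.84 CPM (4.75 to 7.10) and 104.9 CPM, a log2 ratio of 4.17 (3.88 to 4.47). NHLH2, a basic helix-loop-helix transcription factor gene, had 27 and 160 (2.51, 1.92 to 3.16) and TLCD4, which overlaps another annotated gene on the same strand, 152 and 817 (2.37, 2.12 to 2.63). INKA2, an inhibitor of the kinase PAK4, had 89 and 345 (1.90). The epoxide hydrolase gene EPHX4 had 51 and 187 (1.82) and the adhesion molecule gene AMIGO1 106 and 390 (1.82). SLC44A3, of the choline transporter-like family, had 100 and 347 (1.74), LRRC8B, a subunit of volume-regulated anion channels, 364 and 1258 (1.73), and SORT1, the sorting receptor sortilin, 1260 and 3501 (1.42). In all, 9 members were at least 4-fold higher. Named after their values were seen, those of few counts included TENT5C, a poly(A) polymerase gene (8 and 42), and AKNAD1 (3 and 42, log2 ratio 3.75, 2.11 to 6.09). A further 5 members were at least 4-fold lower. The share of all genes at the 4-fold limit was not taken, so nothing is read from these 2 counts.

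Among the members with the largest gains in level were RPL5 and PHGDH, both on the short arm. RPL5, a protein of the large ribosomal subunit, had 13971 and 38051 counts, or 816 and 2137 CPM (log2 ratio 1.39, 1.36 to 1.42). PHGDH, the first enzyme of serine synthesis, had 3304 and 7881 counts, or 193 and 443 CPM (1.20, 1.14 to 1.26).

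**Figure D4:**
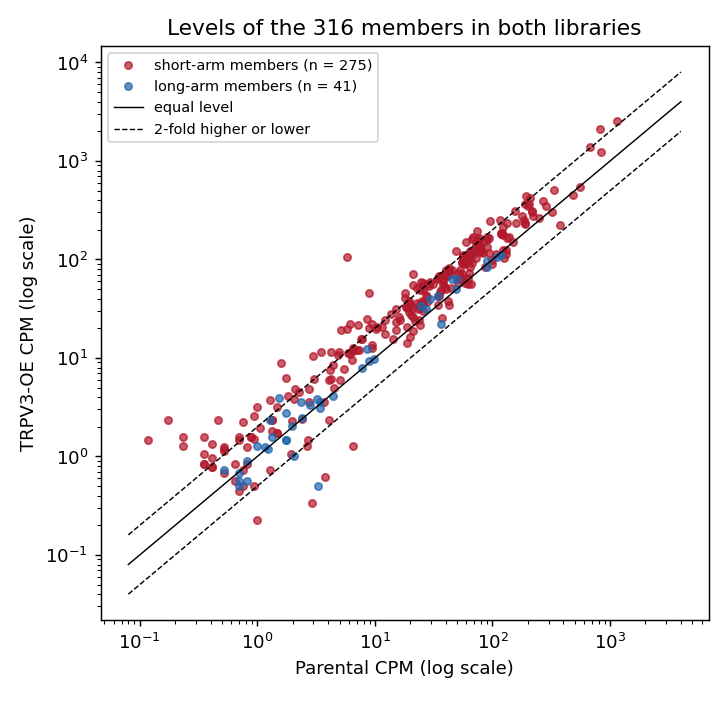
Level of each member in the parental (horizontal) and the TRPV3-OE library (vertical), in CPM on log axes, for 275 short-arm and 41 long-arm members. Most short-arm members lie between the line of equal level and the line of 2-fold higher level, and PRKAA2 stands highest above them at 5.84 and 104.9 CPM.

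Some members went against the stretch. Of the 7 called lower, GBP4, a guanylate-binding protein gene induced by interferon, had 50 and 6 counts (log2 ratio −3.12, −4.63 to −1.89). ST6GALNAC5, a sialyltransferase gene, had 112 and 23 (−2.34, −3.06 to −1.68). The sphingosine 1-phosphate receptor gene S1PR1 (65 and 11), the interferon-induced gene IFI44L (17 and 4) and the actin-binding nexilin gene NEXN (45 and 23) were named after their values were seen, and H2BC21 and FAM72D complete the 7. ARHGAP29, which encodes a GTPase-activating protein, was below 1 without passing 2-fold, at 6396 and 3982 counts (−0.74, −0.80 to −0.68), the largest loss in level among members (373 to 224 CPM). LRIF1, which encodes a nuclear receptor-interacting factor, had 634 and 455 (−0.53). The cystathionine gamma-lyase gene CTH had 70 and 42 (−0.79) and the quinone oxidoreductase gene CRYZ 727 and 621 (−0.28). The corepressor gene MIER1 had 1135 and 1007 (−0.23) and LIX1L on the long arm 624 and 391 (−0.73).

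By role, 13 lists were set up, in which a gene may appear more than once. For comparison with each list, 48.8% of all genes had a ratio above 1, 7.85% were called higher and 6.76% lower. The lists are small, and nothing is read from the counts called in them. Among 20 genes of translation and RNA processing, all of them members, 18 had a ratio above 1, with 2 called higher, 0 lower and a median log2 ratio of 0.58. The called genes were RPL5 and SARS1, the seryl-tRNA synthetase gene (3560 and 7482 counts, 1.02). SERBP1, an mRNA-binding protein found on ribosomes, had 8284 and 8122 counts (−0.08, −0.13 to −0.04). RBM8A on the long arm, a core protein of the exon junction complex, had 1866 and 1891 (−0.04, −0.13 to 0.06, and 0.02 when scaled by total counts), while its partner MAGOH, between RNF11 and the lower limit, had 1153 and 1642 (0.45, 0.34 to 0.56).

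Of 17 measured transcription genes, 13 were above 1 and 0 passed the 2-fold limit in either direction (median 0.49). DR1, a repressor that binds TBP, had 2291 and 4171 counts (0.81). The ubiquitin ligase gene TRIM33 had 1427 and 2658 (0.84) and the zinc finger gene ZNF644 1329 and 2466 (0.84). JUN, a subunit of AP-1, had 2134 and 1832 (−0.28, −0.37 to −0.19). The ubiquitin, proteasome and chaperone list had all 9 measured members above 1 and 0 called (median 0.51), from 3715 and 5501 counts for the proteasome subunit gene PSMA5 (0.51) to 3231 and 4054 for the deubiquitinase gene USP1 (0.27) and 1538 and 2821 for USP24 (0.82).

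Signalling genes had 18 of 23 measured members above 1, with 4 called higher, 1 lower and a median of 0.56. The capping protein gene CAPZA1 had 5729 and 8951 counts (0.59), the G protein subunit gene GNAI3 3207 and 4195 (0.33), and the small GTPase gene NRAS 2700 and 4141 (0.56). PRKAA2 was the extreme of this list, and PRKAB2, another subunit gene of the same kinase but on the long arm, had 841 and 889 (0.02, −0.11 to 0.16). In the list of cell division and DNA repair 10 of 13 were above 1, with 3 called higher, 1 lower and a median of 0.79. GPSM2, which orients the mitotic spindle, had 1164 and 2993 (1.31) and the replication kinase gene CDC7 1274 and 2447 (0.89), whereas DEPDC1 had 1711 and 1610 (−0.14).

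Metabolic enzymes had 16 of 21 measured members above 1, with 3 called higher, PHGDH and EXTL2 among them, 0 lower and a median of 0.59. EXTL2, a glycosyltransferase gene, had 421 and 1041 counts (1.25, 1.09 to 1.42). Transporters and channels had all 15 measured members above 1, with 6 called higher, 0 lower and a median of 0.70. Among those with most counts were the lactate transporter gene SLC16A1 (4637 and 6946, 0.53), the peroxisomal transporter gene ABCD3 (1647 and 4340, 1.34) and the mitochondrial carrier gene SLC25A24 (2117 and 3177, 0.53). The glutathione list had 2 of 3 measured members called higher (median 1.03). These were GCLM of glutathione synthesis (1280 and 2722) and the glutathione transferase gene GSTM3 (148 and 447, 1.54), with GSTM4 at 70 and 107 (0.56).

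Adhesion, receptor and secreted factor genes had 12 of 14 measured members above 1, with 4 called higher, 0 lower and a median of 0.61. Besides SORT1, WLS, which carries WNT proteins to the surface, had 1300 and 2835 counts (1.07). A pair of abundant members stayed near the parental level: the matricellular gene CCN1 with 9456 and 9727 counts (−0.02, −0.06 to 0.03, and 0.04 when scaled by total counts) and the tissue factor gene F3 with 5532 and 5419 (−0.09, −0.14 to −0.03). The guanylate-binding proteins and IFI44 genes were the one short-arm list with a median below 0 (−0.28 over 6 measured members, 1 of them above 1, 0 called higher and 2 lower). GBP1 had 414 and 387 (−0.15), GBP3 318 and 250 (−0.40) and IFI44 94 and 139 (0.51).

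Genes near the centromere and at the upper limit made up 3 lists, and some long-arm members also stand in the lists above. Of 14 measured single-copy genes near the centromere 10 were above 1 and 0 were called, with a median of 0.08. TXNIP, an inhibitor of thioredoxin, had 2039 and 1961 counts (−0.11). The SUMO ligase gene PIAS3 had 1529 and 1724 (0.12) and the chromatin remodeller gene CHD1L 1538 and 1510 (−0.08). The duplicated families near the centromere, on both arms, had 15 of 19 measured members above 1, with 2 called higher, 1 lower and a median of 0.24. PDE4DIP had 594 and 756 (0.29). Of the 11 histone genes of the cluster at the upper limit, 2 were measured, H2BC21 and H2AC20 (median −1.37). The 156 members in no list had a median of 0.79. Of them, 37 were called higher (23.7%, against 7.85% of all genes) and 2 lower (1.28%, against 6.76%).

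**Figure D5:**
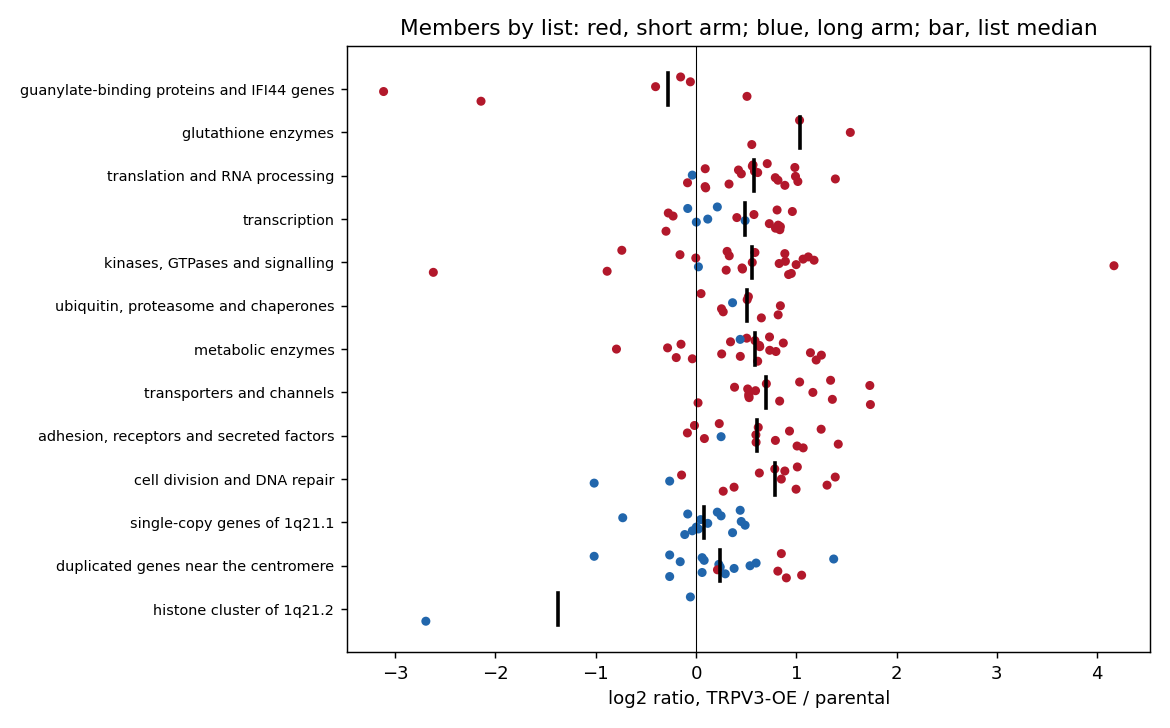
log2 ratio of each measured member (points) in the 13 lists (rows), with the list median (bar), red for the short arm and blue for the long arm. In the 11 lists with short-arm members those points lie mostly above 0, except for the guanylate-binding proteins and IFI44 genes, and long-arm points lie on both sides of 0, from −2.69 (H2BC21) to 1.37 (GPR89B).

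Other traits of the members were examined next. Among them, summed counts and position enter the rule, and parental level enters the ratio by which the limits were chosen. The members' median exonic length was 5262 bases, against 4738 over all genes with at least 20 counts, and their median parental level was 23.9 CPM, against 28.8. The long-arm members had a median parental level of 3.21 CPM and the short-arm members one of 25.5 CPM. Within the short arm the members called higher had a median of 7.68 CPM and those between one of 36.3 CPM. A low parental level raises the ratio, so this contrast is in part built in. Over all genes, 19.7% of those with 20 to 99 counts were called higher, against 1.43% of those with 2000 or more. RefSeq start windows matched 246 of the 316 members. Their median GC content was 64.0%, against 65.3% for the 10485 matched genes of the whole table. The letters TATAAA occurred on either strand in 7.32% of members' windows and 5.50% of those of all matched genes, and GGGCGG, the core of the GC box, in 64.2% and 70.8%. By arm, TATAAA occurred in 5.12% of the short-arm and 22.6% of the 31 matched long-arm windows, and CCAAT in 33.5% and 58.1%, against 36.9% for all matched genes. Many long-arm members belong to duplicated families whose windows can be nearly identical. The same sequence may thus be counted more than once, and nothing is read from the difference between arms. Over all 35116 windows of the RefSeq table, TATAAA occurred in 11.5% and GGGCGG in 45.0%. Across the 275 short-arm members the log2 ratio correlated weakly with the logarithm of summed counts (Pearson −0.03, Spearman −0.11), with exonic length (−0.01 and 0.03) and with position (0.14 and 0.19), as a description over genes that share 2 libraries.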

How the data were processed

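The files hold raw counts of reads per gene, which the authors made with featureCounts 1.5.0-p3 on strand setting 2 with Ensembl 87 gene models of GRCh38.p7, per the file headers. The recorded command sets none of the options for multi-mapping reads, overlapping genes or paired ends. The submitters' processing notes also list STAR and DESeq2, with no version. Symbols came from a gene name table (56948 of 58051 IDs) and gene types from GENCODE 29.

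Scaling used the TMM method of edgeR 4.0.16 (R 4.3.3), whose factors were 0.981 for the parental and 1.02 for the TRPV3-OE library, and 1 count equals 0.0584 and 0.0562 CPM. Ratios carry exact conditional binomial (Clopper-Pearson) 95% intervals and levels exact Poisson ones. A count of 0 would be set to 0.5 in ratios. Step fits used at least 20 genes per segment. The calculation was tested on simulated data. Scaling by total counts, DESeq2 1.42.0 size factors or upper quartile, other count minimums, fold limits and fits were tried.

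The members, lists and tests were chosen with earlier results of these data known. Named genes are the 10 highest and 10 lowest members with at least 100 counts, ordered on whichever end of the interval is closer to 1, the 5 members with the biggest gain and loss of level, the 5 nearest to the median with at least 1000 counts, the 3 genes on either side of each edge, and the 4 of most counts in each list. Some genes that this rule names are not reported here. Scripts ran in Python 3.11.15 with scipy 1.17.1.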

Additional observations from a re-analysis of the deposited data

How the results depend on the processing

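No paired analysis was possible because the parental and TRPV3-OE groups hold 1 library apiece, and no replicate could be left out. The median log2 ratio of the members was 0.62. It was 0.73 on the short arm alone and 0.061 on the long arm alone, and between 0.60 and 0.68 under each scaling, count minimum, the prior count of 5, the mean and protein-coding genes alone. The numbers called higher and lower were 63 and 7. They became 157 and 11 at 1.5-fold and 9 and 5 at 4-fold, limits at which the share of all genes was not taken. With a minimum of 100 counts 1 was lower, and with a minimum of 500, where fewer genes qualify, they were 32 and 0.

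The fit with 1 outer level began at 48295372 and ended at 236795281. It ran from 51561866 to 143595216 with a minimum of 1 count, began at 50437028 with a minimum of 500, and ran from 47023568 to 121184810 by least squares. The fit with a level for each segment was added after the first was seen. With 3 segments it began at 51236271 in all settings run but the minimum of 1 count (48295372). It ended at 121184810 except with a minimum of 1 (118614333), 100 (144421386) or 500 counts (117929720). With 3 breakpoints the raised genes began at 48295372, and with 4 or 5 at 51236271. The causes were not tested. Alternatives gave 388 values for the named genes, of which 364 stayed within the interval and 24 moved. No called gene turned direction, while 3 uncalled genes near 0 changed sign. CCN1 (−0.02) and RBM8A (−0.04) became 0.04 and 0.02 by total counts and were also above 0 by DESeq2 size factors and upper quartile, and H2AC20 (−0.06) became 0.0020 by upper quartile. For a gene with about 20 counts the interval is wide, so small differences in such members were not detectable at this depth.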
